A study of Mus musculus with 59 samples.

Results

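The transcripts described here are those encoded by mitochondrial DNA, taken as every row of the TPM table whose gene symbol starts with mt-. The rule found 37 of 47643 rows, and measured values played no part in it. TPM, the unit of the table, is read number divided by transcript length and scaled to 1000000 per library. This is meant to make levels of genes of different length comparable. The 59 libraries came from muscles of female NCI Ath/nude mice aged 4 months, each bearing a human melanoma xenograft, either MAST360B, which is cachectic (it causes wasting of muscle), or MAST552A, which is not. Diaphragm gave 10 libraries with the cachectic and 9 with the non-cachectic melanoma after mock injections (bovine serum albumin in saline), and 10 and 10 after intraperitoneal injections of recombinant Fibcd1 protein (rFibcd1), whose effect on wasting of this muscle the study examined. For both cachectic groups the study's own figure of diaphragm RNA-seq gives fewer muscles than the libraries used here. Tibialis anterior (TA) and soleus were each sampled with 5 cachectic and 5 non-cachectic libraries and no injection is given in their labels. No group lacked a tumour, each melanoma type is a single xenograft line, and nude mice lack mature T cells, so every comparison is between tumours or treatments within such hosts.

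Mitochondrial DNA is a circular genome that codes for 13 proteins, 2 ribosomal RNAs and 22 transfer RNAs. All 13 proteins are subunits of the oxidative phosphorylation machinery, where they join subunits made from nuclear genes: 7 belong to complex I (NADH dehydrogenase), 1 to complex III, 3 to complex IV (cytochrome c oxidase) and 2 to complex V (ATP synthase). Both strands are transcribed as long precursors that are cut into single RNAs, mostly at the transfer RNAs lying between the coding genes, and the mature RNAs are then stabilised or degraded at different rates. Skeletal muscle, with its high demand for ATP, holds large amounts of these RNAs.

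The 37 rows matched the 13 protein-coding, 2 ribosomal RNA and 22 transfer RNA genes of the mitochondrial chromosome in GENCODE M21 (GRCm38). Values above 0 were found for all 13 protein-coding genes, in 59 of 59 libraries each. The ribosomal RNA genes mt-Rnr1 and mt-Rnr2 and all 22 transfer RNA genes were listed at 0 in every library, as were all 353 nuclear rows annotated as rRNA, all 1439 snoRNA rows and all 2146 miRNA rows. A row at 0 in this table therefore says nothing of the level of that RNA, and the 24 non-coding genes entered no comparison. The coding genes run from mt-Nd1 (chrM:2751-3707) to mt-Cytb (chrM:14145-15288). All lie on the plus strand except mt-Nd6 (chrM:13552-14070), the only coding gene of the minus strand. Of 15 nuclear genes listed as possible copies of mitochondrial DNA, 10 matched an mt- gene at 95.9% to 100% identity (blastn), and all 10 were listed at 0 in every library. How reads fitting both places were counted is not given in the sources used here.

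Several coding genes share bases, so part of their reads cannot be given to a single gene, and the sequences are shown for the pairs on which later values turn. The last 43 bases of mt-Atp8 (chrM:7766-7969, plus strand) are also the first of mt-Atp6 (chrM:7927-8607), and the last 7 bases of mt-Nd4l (chrM:9877-10173) are the first of mt-Nd4 (chrM:10167-11544). These genes lie on 1 precursor and are known to stay joined in their mature RNAs. The ends of mt-Nd5 and mt-Nd6 overlap by 14 bases on opposite strands. Capitals mark the shared bases in each sequence (GENCODE M21 transcripts, GRCm38, 5′ to 3′ on the gene's own strand). For mt-Atp6 and mt-Nd4 the first 60 bases are given, at chrM:7927-7986 and chrM:10167-10226, and for mt-Nd5 (plus) and mt-Nd6 (minus) the last 60, at chrM:13506-13565 and chrM:13552-13611.
mt-Atp8: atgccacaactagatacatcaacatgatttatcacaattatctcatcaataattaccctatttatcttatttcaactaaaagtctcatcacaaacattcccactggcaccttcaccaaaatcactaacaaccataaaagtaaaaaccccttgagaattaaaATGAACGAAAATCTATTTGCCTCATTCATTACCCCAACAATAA
mt-Atp6 start: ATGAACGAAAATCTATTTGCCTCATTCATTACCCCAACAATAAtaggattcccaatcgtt
mt-Nd4l: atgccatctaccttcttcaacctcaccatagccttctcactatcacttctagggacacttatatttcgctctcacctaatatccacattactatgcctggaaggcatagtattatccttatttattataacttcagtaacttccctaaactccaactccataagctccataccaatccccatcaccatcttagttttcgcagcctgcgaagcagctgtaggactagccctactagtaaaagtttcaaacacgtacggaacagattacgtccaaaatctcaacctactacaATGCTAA
mt-Nd4 start: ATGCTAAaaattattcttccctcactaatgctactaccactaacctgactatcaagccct
mt-Nd5 end: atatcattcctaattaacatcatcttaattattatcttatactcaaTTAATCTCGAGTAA
mt-Nd6 end: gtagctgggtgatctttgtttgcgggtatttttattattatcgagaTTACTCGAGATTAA
The labels name a stranded kit and the study's methods another type, so whether reads of mt-Nd6 could be told from antisense RNA of the mt-Nd5 strand was not resolved. This bears on mt-Nd6 most, since its level was far below that of its neighbours.

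Among all 47643 rows, mt-Co1 had the highest mean TPM over the 59 libraries (79782), followed by mt-Co2 (54270), mt-Co3 (53314), mt-Atp6 (48872) and mt-Atp8 (33728). The lowest coding transcript was mt-Nd6, with a mean of 594 TPM and rank 151, and the next lowest was mt-Nd3 (9380 TPM, rank 15). As a share of the mt- sum, mt-Cytb and mt-Atp6 varied least over the libraries, with coefficients of variation of 4.03% and 4.10%. The shares of mt-Nd6 (28.7%) and mt-Nd3 (16.8%) varied most, but these values pool muscles with unlike means: mt-Nd3 took 2.94% ± 0.0396 (SD, n = 5) in non-cachectic TA and 2.24% ± 0.112 (n = 9) in non-cachectic mock diaphragm.

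The number of genes above 0 ranged from 17950 to 19456 in diaphragm, 16436 to 17673 in TA and 17514 to 18191 in soleus. Muscle identity followed the labels. The mean level of Myh4, a myosin of fast fibres, was 11178 TPM in non-cachectic TA and 14.8 TPM in non-cachectic soleus, and that of Myh7, the slow myosin, 0.849 and 4945 TPM. In 1 cachectic soleus library (column number 7) Myh4 was at 4989 TPM against 31.2 to 69.8 TPM in the other 4, and its mt- share was 32.4%. The libraries also differ in the pseudogene Pcna-ps2, which was above 2 TPM (called the high state here) in 36 and at or below it in 23 of 59 libraries. In mock diaphragm 9 of 10 cachectic and 3 of 9 non-cachectic libraries were in the high state, and with rFibcd1 8 of 10 and 6 of 10. In TA and soleus all cachectic libraries were high and all non-cachectic ones low, so in these muscles the state and the melanoma cannot be told apart. Of the lists of other cell types, the summed macrophage markers averaged 51.7 TPM in non-cachectic and 109 TPM in cachectic mock diaphragm and the summed neutrophil markers 8.29 and 28.4 TPM, whereas the summed melanocyte markers stayed at or below 2.40 TPM in every library. The part of these cells in the values below was not tested. In bulk muscle, fewer fibres and less RNA per fibre cannot be told apart.

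A single library stood apart in the makeup of its mt- transcripts and is named here before the results. In the cachectic rFibcd1 diaphragm library with column number 11, mt-Atp8 was at 5966 TPM and mt-Nd4l at 3274 TPM, while the other 9 libraries of the group started at 24440 and 13510 TPM. These were 2.00% and 1.10% of its mt- sum against means of 8.46% ± 0.714 and 4.18% ± 0.131 (SD, n = 9), ratios of 0.237 and 0.263. The shares of mt-Nd5 (ratio 0.485), mt-Nd2 (0.603) and mt-Nd4 (0.689) were also below every other library of the series. In turn mt-Co2 took 20.9% of its mt- sum (others of the group 13.4% ± 0.606), mt-Co3 18.7% (13.1% ± 0.383) and mt-Atp6 14.03% (11.8% ± 0.384), each above every other library of the series. The shares of mt-Co1 (20.0% against 20.1%) and mt-Cytb (7.04% against 7.50%) were within the range of the group. Both shortest genes, mt-Atp8 (204 bases) and mt-Nd4l (297 bases), had the lowest ratios, but mt-Nd3 (348 bases) was at 1.28. Its mt- share of 29.8% was the lowest of the diaphragm libraries, and without it the group mean was 38.5% in place of 37.6%. Results of the diaphragm are given with and without this library where it changes them.

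**Figure D1:**
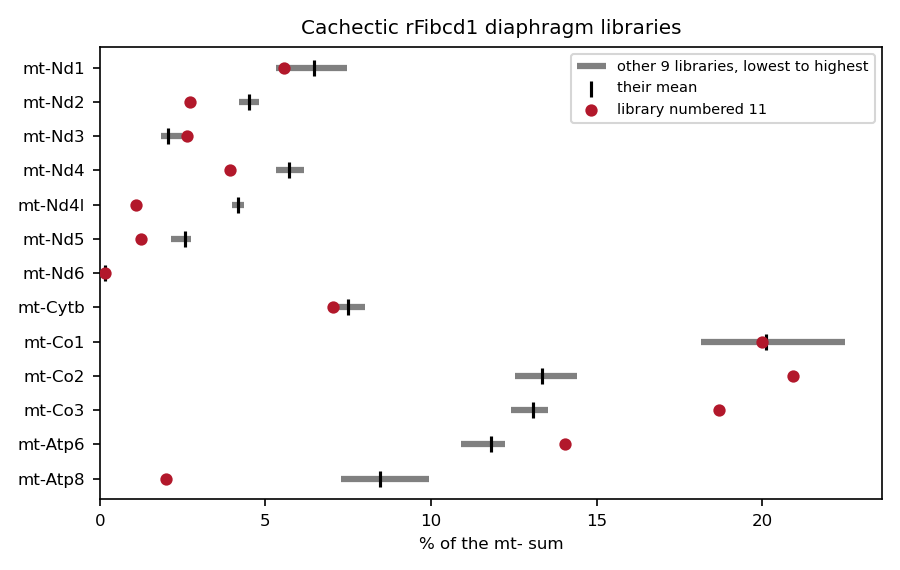
Share of each protein-coding mt- gene in the mt- sum (percent, horizontal axis) in the cachectic rFibcd1 diaphragm group; red points are the library with column number 11, grey bars run from the lowest to the highest of the other 9 libraries and black ticks are their means. The red point lies below the bar for mt-Atp8, mt-Nd4l, mt-Nd5, mt-Nd2 and mt-Nd4 and above it for mt-Co2, mt-Co3, mt-Atp6 and mt-Nd3.

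The first question was how much of each library the mt- transcripts took with either melanoma. In mock diaphragm they took 47.5% ± 2.97 (SD, n = 9) of all TPM with the non-cachectic and 38.1% ± 3.18 (n = 10) with the cachectic melanoma, and the cachectic libraries (32.9% to 41.6%) all lay below the non-cachectic ones (41.9% to 51.9%). With rFibcd1 the shares were 43.9% ± 2.95 and 37.6% ± 5.62 (n = 10 each), and the ranges overlapped (39.3% to 49.0% and 29.8% to 46.4%). Non-cachectic TA libraries ran from 47.3% to 51.7% and cachectic ones were at 25.1%, 38.9%, 40.6%, 43.8% and 45.6%. Soleus libraries lay at 38.96% to 44.04% without and at 24.1% to 34.6% with cachexia. No overlap was seen in either limb muscle. Because these shares are sums over the chosen genes, they are given without a test. By state, the 3 high-state libraries of non-cachectic mock diaphragm averaged 44.7% ± 2.52 (41.9% to 46.8%) and the 6 low-state ones 48.9% ± 2.10 (46.7% to 51.9%), which overlap. In cachectic rFibcd1 diaphragm the order of the means was the other way (37.8%, n = 8, and 37.1%, n = 2). These 2 low-state libraries were at 29.8% (number 11) and 44.4% (number 14), so without number 11 the order turned back. Among high-state mock libraries alone, cachectic ones (n = 9, 32.9% to 41.6%) still lay below non-cachectic ones (n = 3, 41.9% to 46.8%).

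**Figure D2:**
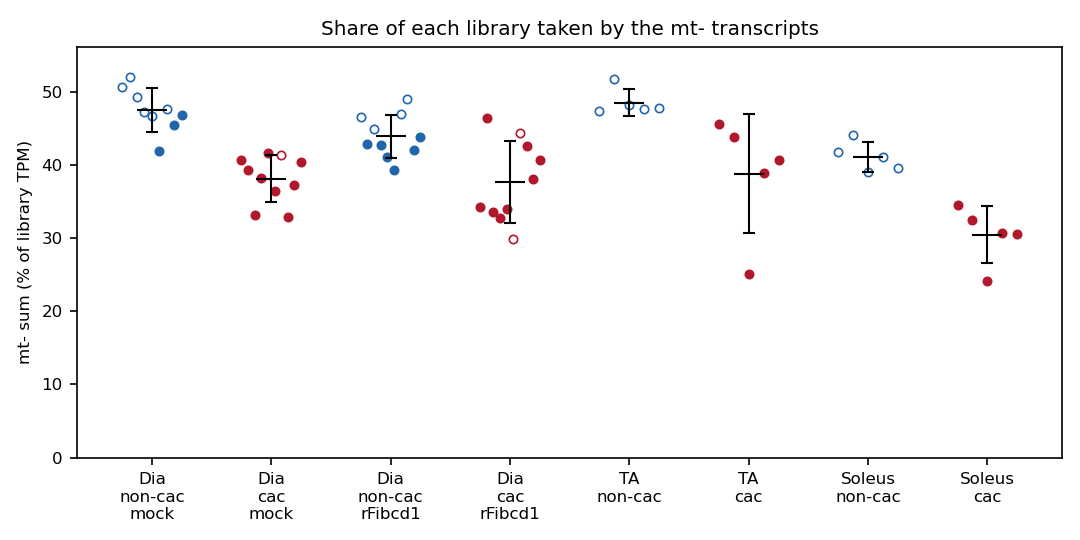
Sum of the mt- transcripts as a percent of each library's TPM (vertical axis) in the 8 groups (cac, cachectic, red; non-cac, non-cachectic, blue); each point is a library, filled for the high and open for the low Pcna-ps2 state, and the black mark and bars are the mean and SD. The cachectic points lie below the non-cachectic ones without overlap in mock diaphragm, TA and soleus, and overlap with them in rFibcd1 diaphragm.

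TPM is a share, so what the mt- transcripts lose the other genes together gain on this scale, though any 1 gene need not. The remainder of the library averaged 52.5% without and 61.9% with cachexia in mock diaphragm, a log2 ratio of 0.24, and the median log2 fold change of all genes tested was 0.20. In TA the log2 ratio of the remainder was 0.25 and the median of all genes 0.41, and in soleus 0.24 and 0.09. Fold changes below are on the log2(TPM + 1) scale and each is to be read beside these medians.

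In mock diaphragm, transcripts of all 13 coding genes had a lower mean with the cachectic melanoma, and 10 fell past the threshold (limma, adjusted p under 0.05 over all 13426 genes tested). These p-values measure the spread between libraries, since the column labels do not tie a library to an animal. Of all genes tested, 2.67% were called lower. The median log2 fold change of the 13 was -0.31, with a range from -0.45 to -0.16. Of complex I, mt-Nd3, a membrane subunit near the joint of both arms of the enzyme, ran from 9442 to 11634 TPM (median 10890) in non-cachectic and from 6291 to 9498 TPM (median 7844) in cachectic libraries. It fell by 0.45 ± 0.08 (SE, log2, adjusted p = 0.00011), the largest change among the 13. The pumping subunit mt-Nd2 ran from 20705 to 25164 TPM (median 22435) and from 14863 to 20314 TPM (median 16928), with no overlap, and fell by 0.41 ± 0.11 (adjusted p = 0.0035). Also of complex I, mt-Nd5 (fell by 0.36), mt-Nd4 (fell by 0.30) and mt-Nd1 (fell by 0.27) passed the test, and mt-Nd4l (-0.32 ± 0.18, adjusted p = 0.16) and mt-Nd6 (-0.16 ± 0.19, adjusted p = 0.52) did not.

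All 3 genes for the catalytic core of complex IV fell in mock diaphragm. mt-Co1, which holds the oxygen-reducing centre, ran from 85592 to 104053 TPM (median 96308) in non-cachectic and from 63305 to 84801 TPM (median 78151) in cachectic libraries and fell by 0.32 ± 0.08 (adjusted p = 0.0031). mt-Co2, which takes up electrons from cytochrome c, fell by 0.30 and mt-Co3 by 0.31. mt-Cytb, the cytochrome b of complex III, ran from 30988 to 39471 TPM (median 35894) and from 25414 to 33475 TPM (median 29553) and fell by 0.30 ± 0.08 (adjusted p = 0.0044). Of complex V, mt-Atp6, part of the proton channel, fell by 0.29 ± 0.07 (adjusted p = 0.0012). For mt-Atp8, a small membrane subunit, cachectic libraries (25280 to 33177 TPM, median 31070) all lay below non-cachectic ones (34133 to 44258 TPM, median 40319), yet its log2 fold change of -0.40 ± 0.19 did not pass (adjusted p = 0.099). The 4 diaphragm groups share 1 estimate of the spread. Without the rFibcd1 library numbered 11 the fold changes in mock diaphragm stayed at -0.40 for mt-Atp8 and -0.32 for mt-Nd4l, with limma adjusted p of 0.00034 and 0.0016, and 12 of 13 genes were called (3.29% of all genes called lower). No overlap between the groups was seen for 3 of 13 genes (mt-Nd2, mt-Co1 and mt-Atp8), against 0.290% of all genes tested.

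The calls in mock diaphragm depended on the state of the libraries and on the filter. With the state as a term 6 of 13 genes were called lower (3.03% of all genes), and among high-state libraries only 2 (0.685% of all genes, median log2 fold change -0.24, all 13 negative), with 3 non-cachectic libraries left. In both non-cachectic groups the levels of mt-Nd3, mt-Nd4, mt-Nd5 and mt-Cytb differed by state without overlap. High-state mock libraries of mt-Nd3 averaged 9624 TPM without (n = 3) and 7617 TPM with cachexia (n = 9). Its low-state non-cachectic mock libraries averaged 11166 TPM (n = 6). For mt-Nd5 the high-state mock libraries averaged 9979 TPM without (n = 3) and 9372 TPM with cachexia (n = 9). The low-state non-cachectic ones of mt-Nd5 averaged 13103 TPM (n = 6), while the 1 low-state cachectic library was at 9856 TPM. Its log2 fold change was -0.11 among high-state libraries (limma, adjusted p = 0.58) and -0.28 with the state as a term (adjusted p = 0.22), and its call was lost in 11 of the fits that left out 1 mock library. Without the filter on low TPM 1 of 13 genes passed, beside 1.68% of all genes called lower.

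With rFibcd1, the same melanoma comparison gave 5 of 13 genes called lower (limma, 1.97% of all genes called lower), and all 13 again had negative log2 fold changes (median -0.27, range -0.42 to -0.07). The 5 were mt-Nd2 (fell by 0.37 ± 0.10, SE, adjusted p = 0.021), mt-Nd3 (fell by 0.28 ± 0.08, adjusted p = 0.020), mt-Nd1 (fell by 0.27), mt-Cytb (fell by 0.25) and mt-Atp6 (fell by 0.21). For mt-Nd2 the libraries ran from 18320 to 23561 TPM (median 20347) without and from 8120 to 22378 TPM (median 16724) with cachexia, so the groups overlapped, and no gene separated them fully. This count was not stable. It was 9 without cachectic library 2 or 14 or non-cachectic library 56, and 1 to 3 without cachectic library 1, 3, 4 or 5 or non-cachectic library 46, 57 or 58 (column numbers). Over the fits that left out 1 library, 1.21% to 3.29% of all genes were called lower. The Dunn test called 0 mt- genes and 0.00% of all genes lower, and at an unadjusted p under 0.05 it gave 10 of 13, beside 18.7% of all genes in either direction. High-state libraries alone likewise gave 0 and 0.00% in limma, and 3 of 13 at an unadjusted p under 0.05, beside 1838 of all 14159 genes tested there. Without the library numbered 11 the count was also 5 (1.58% of all genes called lower) but other genes made it up: mt-Nd1 (adjusted p = 0.051) and mt-Cytb (adjusted p = 0.050) were no longer called, while mt-Co2 (adjusted p = 0.026) and mt-Co3 (adjusted p = 0.041) were. The lowest fold changes of this comparison, mt-Nd4l (-0.42) and mt-Atp8 (-0.39), rest in part on the library numbered 11. It was at 3274 and 5966 TPM for these genes, and the other 9 of its group started at 13510 and 24440 TPM. Both diaphragm comparisons use separate control groups, and their difference, the interaction of melanoma and treatment, was called for 0 of 13 genes (limma, also 0 at an unadjusted p under 0.05, beside 8.79% of all genes; 0.0149% of all genes called lower and 0.00745% higher). Interaction values ran from -0.10 to 0.18 on the log2 scale, with SE from 0.09 to 0.27.

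rFibcd1 against mock was compared directly within each melanoma. In cachectic diaphragm 0 of 13 genes were called (limma, 0 at an unadjusted p under 0.05, beside 10.5% of all genes; Dunn test 0), and 0.00745% of all genes tested were called lower and 0.0372% higher. For mt-Co1 the cachectic libraries ran from 59589 to 93520 TPM (median 75917) with rFibcd1 and from 63305 to 84801 TPM (median 78151) with mock, a log2 fold change of -0.03 with a 95% interval from -0.19 to 0.13. For mt-Nd3 it was 0.00, with an interval from -0.15 to 0.16, and the widest interval was that of mt-Atp8, from -0.52 to 0.23. The fold changes of mt-Atp8 (-0.14) and mt-Nd4l (-0.19) include the library numbered 11. Among high-state libraries, which leave it out, the means went the other way. They were 32068 TPM with rFibcd1 (n = 8) and 30006 TPM with mock (n = 9) for mt-Atp8, and 15883 and 15606 TPM for mt-Nd4l. In non-cachectic diaphragm 0 of 13 genes passed (limma, 1 at an unadjusted p under 0.05, beside 17.4% of all genes; Dunn test 0; 0.0670% of all genes called lower and 0.350% higher), with all 13 log2 fold changes negative (median -0.11) while the median of all genes was 0.15. The 1 gene was mt-Nd3, which ran from 7453 to 12496 TPM with rFibcd1 and from 9442 to 11634 TPM with mock, a log2 fold change of -0.17 (interval -0.33 to -0.01, p = 0.035, adjusted p = 0.28).

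**Figure D3:**
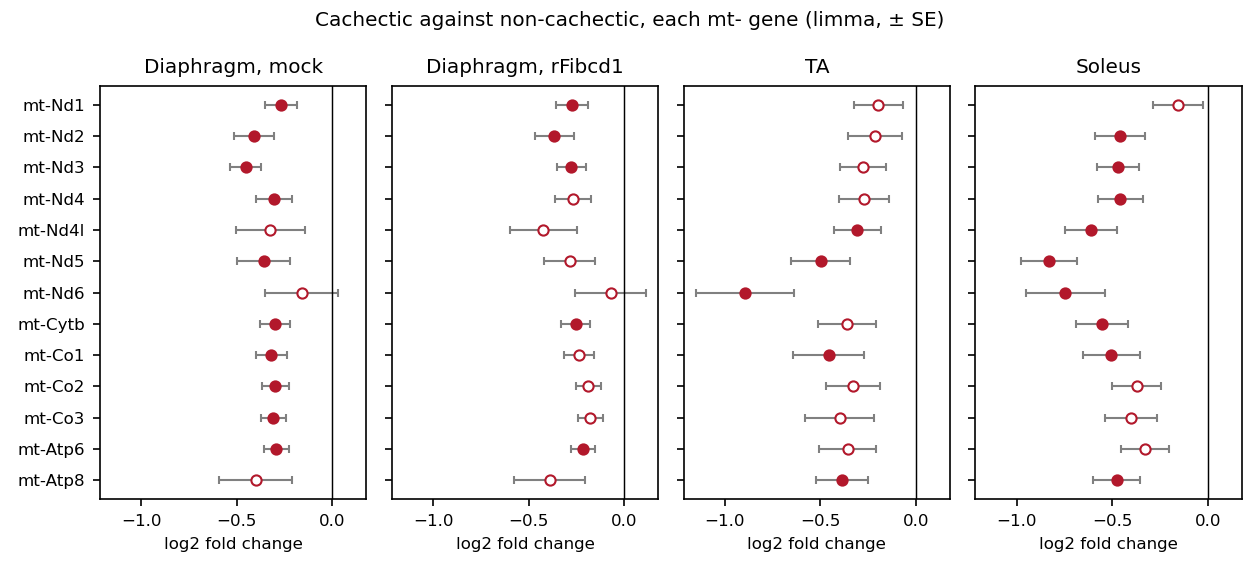
Log2 fold change (horizontal axis, log2(TPM + 1) scale) of each protein-coding mt- gene, cachectic against non-cachectic, in 4 comparisons; bars are the SE from limma and filled points passed an adjusted p of 0.05. All points lie below 0 in each panel, with mt-Nd5 and mt-Nd6 lowest in TA and soleus.

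In TA, 5 of 13 genes fell with the cachectic melanoma (limma, 11105 genes tested, 3.78% called lower), and all 13 log2 fold changes were negative (median -0.36). The largest was that of mt-Nd6, the complex I subunit from the minus strand. Its non-cachectic libraries were at 867, 1065, 976, 627 and 643 TPM and its cachectic ones at 537, 598, 216, 489 and 477 TPM. These did not overlap, and mt-Nd6 fell by 0.90 ± 0.26 (SE, log2, adjusted p = 0.013). For mt-Nd5, a pumping subunit of complex I, the libraries were at 13356, 13959, 13171, 13243 and 13820 TPM without and 11462, 11355, 6155, 10242 and 9758 TPM with cachexia. It fell by 0.50 ± 0.15 (adjusted p = 0.018), again with no overlap. mt-Co1 (fell by 0.46), mt-Atp8 (fell by 0.39) and mt-Nd4l (fell by 0.31) were the other 3 called. By contrast mt-Nd1 was at 31783, 33833, 32629, 33269 and 31758 TPM and at 33924, 29505, 20285, 29404 and 31410 TPM, with overlap and a log2 fold change of -0.20 (adjusted p = 0.19). Groups did not overlap for 9 of 13 genes, against 2.55% of all genes tested. A single cachectic library, with column number 8, was lowest for 13 of 13 genes. Without it the median log2 fold change was -0.21 and 9 of 13 genes were called, beside 5.56% of all genes called lower. The count was also 9 without cachectic library 6 or 7, 2 without cachectic library 9 and 2 or 3 without any 1 of the non-cachectic libraries, and over all these fits 2.97% to 5.56% of all genes were called lower.

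In soleus, 9 of 13 genes fell (limma, 11957 genes tested, 7.54% called lower), the median log2 fold change being -0.47. mt-Nd5 again moved far, from 13160, 14316, 11169, 12247 and 12036 TPM in non-cachectic to 7945, 8375, 5091, 7863 and 6562 TPM in cachectic libraries. It fell by 0.83 ± 0.15 (SE, log2, adjusted p = 0.0027) with a wide gap between the groups. mt-Nd6 was at 454, 388, 316, 483 and 537 TPM and at 210, 275, 202, 219 and 422 TPM, overlapping in 1 cachectic library, and fell by 0.75 ± 0.21 (adjusted p = 0.022). mt-Nd4l went from 18658, 21296, 17834, 20811 and 19436 TPM to 14524, 14934, 10393, 14030 and 10961 TPM and fell by 0.61 ± 0.14 (adjusted p = 0.0078). mt-Cytb (fell by 0.55), mt-Co1 (fell by 0.51), mt-Atp8 (fell by 0.48), mt-Nd3 (fell by 0.47), mt-Nd2 (fell by 0.46) and mt-Nd4 (fell by 0.46) were also called. mt-Nd1 was at 24023, 25127, 21261, 22835 and 23143 TPM without and 24297, 21814, 16356, 19868 and 22856 TPM with cachexia. Its log2 fold change of -0.16 (adjusted p = 0.41) was the smallest of the 13 in soleus, and in TA that of mt-Nd1 (-0.20) was also the smallest. Groups did not overlap for 11 of 13 genes, against 5.40% of all genes tested. Without the cachectic soleus library of high Myh4 the count was 9 (6.10% of all genes called lower), and without 1 non-cachectic library it was 6 to 8, with mt-Co1 lost in all 5 of these fits and mt-Nd2 in 4. Over all soleus fits that left out 1 library, 5.39% to 8.45% of all genes were called lower. Without the filter on low TPM 2 of 13 were called, beside 5.13% of all genes called lower.

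Whether the melanoma effect differed between muscles was tested as a difference of log2 fold changes in 1 fit over all groups without rFibcd1. Of all genes, 19.1% were called higher and 1.26% lower between TA and soleus (limma, adjusted p under 0.05). These shares were 0.711% and 4.33% between diaphragm and TA, and 1.95% and 0.570% between diaphragm and soleus. No mt- gene was called in any of the 3 differences with limma. This changed when the number in the column name, which recurs across muscles and is not tied to an animal by the labels, entered as a block, an alternative added after seeing the data: mt-Nd4l (adjusted p = 0.026) and mt-Nd5 (adjusted p = 0.032) were then called between TA and soleus, where 39.1% of all genes were called in that direction. mt-Nd6 was called between diaphragm and TA (adjusted p = 0.014, 3.38% of all genes in that direction) and between diaphragm and soleus (adjusted p = 0.047, 5.76%). Without that block the values were as follows. Between TA and soleus, 0 of 13 had an unadjusted p under 0.05, a level that 37.8% of all genes reached. Between diaphragm and TA 1 of 13 reached it (mt-Nd6, 0.74 ± 0.30 SE, limma, adjusted p = 0.12), beside 24.4% of all genes, and between diaphragm and soleus 2 (mt-Nd5, 0.47 ± 0.18, adjusted p = 0.16, and mt-Nd4l, 0.28 ± 0.14, adjusted p = 0.30), beside 15.8%. The fold changes of mt-Nd5 were -0.36 in diaphragm, -0.50 in TA and -0.83 in soleus and those of mt-Nd6 -0.16, -0.90 and -0.75. These comparisons of muscles share their groups, so the values are given side by side only.

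The makeup of the mt- sum was then described as each gene's share of it, which does not depend on how large the sum is. In mock diaphragm the group means lay close together for the complexes. Complex I genes together took 25.9% ± 0.404 (SD, n = 9) without and 25.6% ± 0.612 (n = 10) with cachexia, complex IV genes 46.5% ± 0.526 and 46.8% ± 0.711, and complex V genes 20.1% ± 0.673 and 19.9% ± 0.719. The share of mt-Co1 was 20.1% ± 0.318 and 20.1% ± 0.458 (difference 0.0191 percentage points, exact two-sided permutation test, p = 0.92, adjusted p = 0.98 over 12 tests). That of mt-Nd3 was 2.24% ± 0.112 and 2.05% ± 0.135, with overlap.

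In the limb muscles the shares of most genes overlapped between melanomas, 11 of 13 in TA and 7 of 13 in soleus. In soleus mt-Nd1 took 5.66% ± 0.154 of it without and 6.90% ± 0.380 with cachexia (SD, n = 5 each), and the libraries did not overlap (5.46% to 5.84% and 6.49% to 7.49%). mt-Nd5 took 3.06% ± 0.148 and 2.34% ± 0.223, also without overlap (2.87% to 3.25% and 2.11% to 2.58%). The Pcna-ps2 state coincides with the melanoma in soleus, and both shares also differed by state within non-cachectic mock diaphragm, where mt-Nd5 averaged 2.24% in the 3 high-state and 2.68% in the 6 low-state libraries and mt-Nd1 6.79% and 6.37%, without overlap. With rFibcd1 the non-cachectic means were 2.32% and 2.69% for mt-Nd5, again without overlap, and 6.51% and 6.56% for mt-Nd1, with overlap. In TA mt-Nd2 (5.24% ± 0.0875 and 5.76% ± 0.170) lay higher and mt-Nd5 (2.79% ± 0.0757 and 2.52% ± 0.0948) lower in every cachectic library than in any non-cachectic one. Shares of mt-Co1 and mt-Nd6 were tested over samples, and those of mt-Nd6 in both limb muscles and of mt-Co1 in TA overlapped between melanomas. In soleus mt-Co1 went from 20.9% ± 0.351 to 20.0% ± 0.560, and every cachectic library lay below every non-cachectic one (exact two-sided permutation test, p = 0.0079, the smallest that 5 against 5 can give, adjusted p = 0.095 over 12 tests). In TA it went from 16.6% ± 0.305 to 15.4% ± 1.15 (exact permutation, p = 0.016, adjusted p = 0.095), and the library numbered 8, at 13.4%, was far below the other 4 cachectic ones (15.6% to 16.1%). mt-Nd6 went from 0.172% ± 0.0362 to 0.117% ± 0.0188 in TA (exact permutation, p = 0.024, adjusted p = 0.095) and from 0.106% ± 0.0221 to 0.0879% ± 0.0299 in soleus (exact permutation, p = 0.30, adjusted p = 0.72). None of the 12 tests passed after adjustment, and 3 had an unadjusted p under 0.05. In diaphragm the mean share of mt-Nd6 was higher with cachexia, at 0.158% ± 0.0395 against 0.139% ± 0.0229 with mock (exact permutation, p = 0.22, adjusted p = 0.66) and 0.167% ± 0.0388 against 0.150% ± 0.0410 with rFibcd1 (permutation test, p = 0.36, adjusted p = 0.72).

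**Figure D4:**
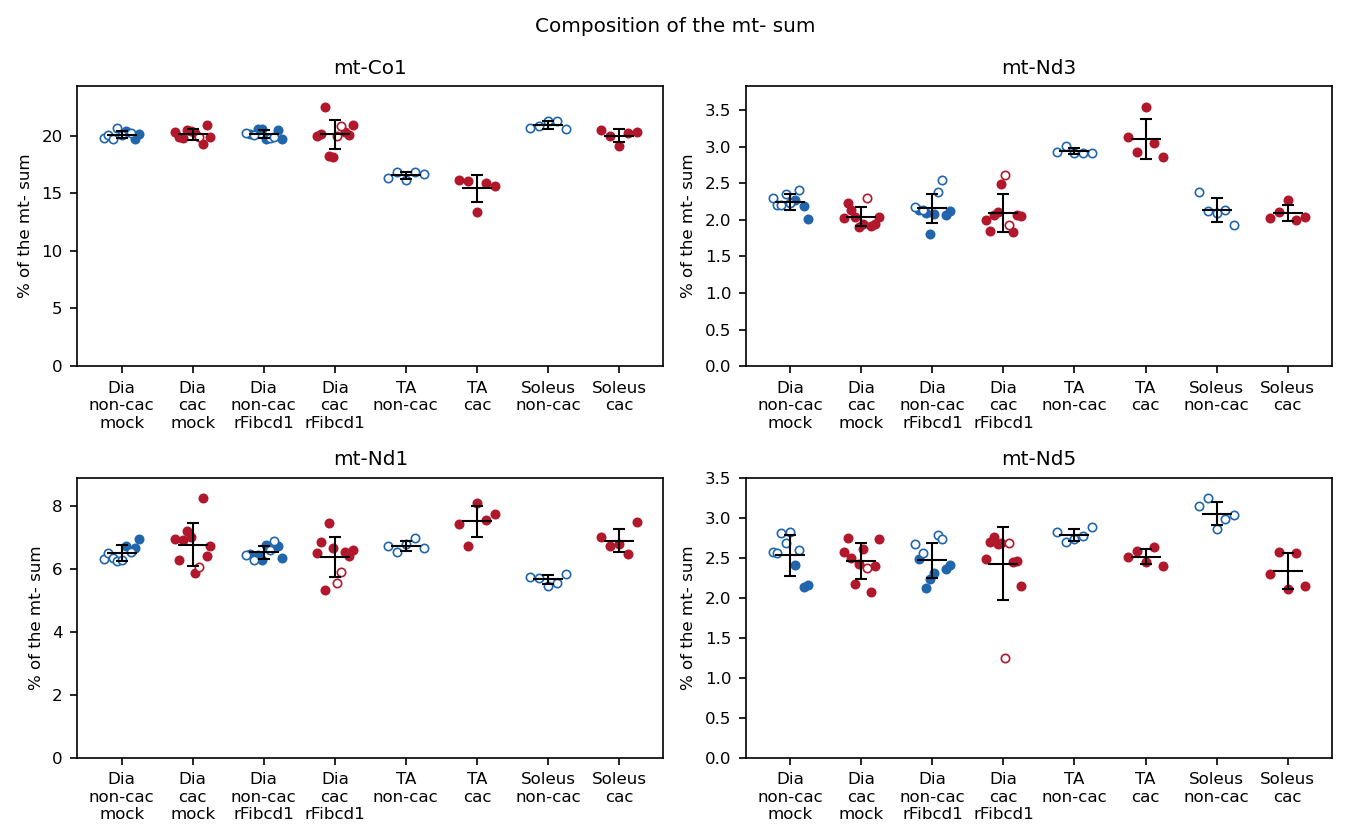
Share of mt-Co1, mt-Nd3, mt-Nd1 and mt-Nd5 in the mt- sum (percent, vertical axis from 0) in the 8 groups; each point is a library (red, cachectic; blue, non-cachectic; filled, high Pcna-ps2 state; open, low), with mean and SD in black. mt-Co1 is lowest and mt-Nd3 highest in TA, and in soleus the cachectic points lie above the non-cachectic ones for mt-Nd1 and below them for mt-Nd5.

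Between muscles the shares did not overlap for 6 of 13 genes in each of the 3 comparisons of non-cachectic libraries, and mt-Co1 and mt-Nd3 are described as those in which TA was lowest or highest without overlap with either other muscle. mt-Nd1, mt-Co2 and mt-Co3 lay higher and mt-Nd4l, mt-Nd4 and mt-Nd5 lower in mock diaphragm than in soleus, where the shares of mt-Co1 and mt-Nd3 overlapped. In non-cachectic libraries mt-Co1 took 16.1% to 16.8% of the mt- sum in TA, 19.7% to 20.6% in mock diaphragm and 20.6% to 21.3% in soleus. mt-Nd3 took 2.92% to 3.01% in TA, 2.02% to 2.41% in mock diaphragm and 1.93% to 2.38% in soleus. The ratio of mt-Co1 to mt-Nd3 TPM was thus 5.63 ± 0.0984 (SD, n = 5) in TA, 8.98 ± 0.440 (n = 9) in mock diaphragm and 9.85 ± 0.730 (n = 5) in soleus, and it did not overlap between TA and the other two. Complex IV genes together took 42.3% ± 0.320 in TA, 45.3% ± 0.347 in soleus and 46.5% ± 0.526 in mock diaphragm, and complex I genes 28.9% ± 0.208, 27.0% ± 0.464 and 25.9% ± 0.404.

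Levels between muscles were compared in non-cachectic libraries with limma over 13501 genes. Against soleus, 10 of 13 mt- genes were higher in TA (5.63% of all genes called higher), among them mt-Nd6 (0.93 ± 0.24 SE, log2, adjusted p = 0.00095), mt-Nd3 (0.71 ± 0.10, adjusted p = 3.7e-07) and mt-Nd1 (0.49 ± 0.10, adjusted p = 8.5e-05). mt-Co1 went the other way without passing (-0.10 ± 0.13, adjusted p = 0.51), at 77276 to 86812 TPM in TA and 81426 to 91846 TPM in soleus. Mock diaphragm against soleus gave 7 of 13 higher (16.8% of all genes called higher), led by mt-Nd6 (0.60 ± 0.21, adjusted p = 0.022), mt-Nd1 (0.41 ± 0.09, adjusted p = 0.00046) and mt-Co2 (0.37 ± 0.09, adjusted p = 0.0011). Mock diaphragm against TA gave 2 lower, mt-Nd3 (-0.42 ± 0.09, adjusted p = 9.9e-05) and mt-Nd4l (-0.25 ± 0.10, adjusted p = 0.022), and 1 higher, mt-Co1 (0.25 ± 0.11, adjusted p = 0.048), where 8.52% of all genes were called lower and 64.0% higher. The call of mt-Co1 was lost in 28 of the fits that left out 1 library. These muscle comparisons depended on the scale. The median of all genes was 0.44 higher in diaphragm than in TA (log2), and with median-ratio scaling, which sets that median near 0, 12 of 13 mt- genes were lower in diaphragm than in TA (36.4% of all genes), mt-Co2 (-0.52, adjusted p = 0.0057) included, while mt-Co1 (-0.33, adjusted p = 0.12) turned negative. With that scaling all 13 were higher in TA than in soleus (28.2% of all genes), mt-Co1 (0.53, adjusted p = 0.039) included, and 3 in place of 7 were higher in diaphragm than in soleus (mt-Nd1, mt-Co2 and mt-Nd6; 23.2% of all genes). The latter count was also 3 or 4 on the TPM scale on leaving out mock diaphragm library 61 or 62 or soleus library 63, 64 or 65. In the fits that left out 1 library, 14.1% to 18.7% of all genes were called higher in diaphragm than in soleus.

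In the 4 melanoma comparisons the median of all genes was above 0, so median-ratio scaling moved every fold change downward. The mt- medians were then -0.54 in mock diaphragm, -0.34 in rFibcd1 diaphragm, -0.86 in TA and -0.56 in soleus, and 12, 1, 6 and 8 genes were called lower, as were 8.41%, 4.74%, 21.9% and 12.8% of all genes. Scaling to the sum of all genes that are not mt- gave 11, 9, 4 and 12 lower, beside 7.40%, 6.32%, 8.89% and 23.5% of all genes.

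Nuclear genes for the same complexes were read beside the mt- genes, from lists of subunits. In mock diaphragm the medians of the lists on the TPM scale lay between -0.02 (complex II, 4 genes) and 0.13 (complex IV, 14 genes), against -0.31 for the mt- genes and 0.20 for all genes. On that scale 3 of 36 complex I genes were called higher and 0 lower, 0 higher and 1 of 4 lower for complex II, 0 of 9 for complex III, 2 of 14 higher and 1 lower for complex IV, and 5 of 16 higher and 0 lower for complex V. Of all genes tested in this comparison 30.9% were called higher and 2.67% lower, and the list counts are to be read beside these shares. With median-ratio scaling, which moved all genes downward together, all 5 list medians were negative (-0.25 to -0.10) and no listed subunit gene was called higher, while Ndufs1 and Ndufab1 of complex I, Sdhc of complex II, Uqcrc2 of complex III, Cox7a1 of complex IV and Atp5j of complex V were called lower (limma, adjusted p from 0.0048 to 0.042). With that scaling 7.39% of all genes were called higher and 8.41% lower, so the sign of 4 lists near 0 (complexes I, III, IV and V) is a matter of scale. The mt- median was lower than every list median.

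Among named subunits, Cox7a1, a muscle form of a small complex IV subunit, fell by 0.36 (limma, adjusted p = 0.025) in mock diaphragm, and Cox8a (0.50, adjusted p = 0.0037) and Cox6a2 (0.39, adjusted p = 0.029) of the same complex were higher on the TPM scale. Sdhc, a membrane subunit of complex II, fell by 0.25 (adjusted p = 0.013). Ndufa6 (0.37), Ndufa7 (0.35) and Ndufb5 (0.27), accessory subunits of complex I, and Atp5g2 (0.41), Atp5g1 (0.33), Atp5l (0.21) and Atp5c1 (0.20) of complex V were higher on the TPM scale and lost their calls with median-ratio scaling, where Atp5l and Atp5c1 turned to -0.03. On that scale Cox7a1 was at -0.59 and Sdhc at -0.48. In TA, Cox7a1 (-0.88, adjusted p = 0.034) and Sdhc (-0.41, adjusted p = 0.0093) were called lower as well, and in soleus Cox7a1 (-1.08, adjusted p = 0.069) and Sdhc (-0.28, adjusted p = 0.15) were not.

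In the limb muscles the nuclear lists had medians from -0.30 (complex II) to 0.13 (complex IV) in TA and from -0.29 (complex II) to -0.05 (complex IV) in soleus on the TPM scale, while the mt- medians were -0.36 and -0.47. In TA 4 of 36 complex I genes were called higher and 5 lower, and 3 of 4 complex II genes lower, where 56.4% of all genes were called higher and 3.78% lower. With median-ratio scaling 29 of 36 and 4 of 4 were lower, beside 21.9% of all genes. In soleus 3 of 36 complex I genes were called higher and 1 lower, and 0 of 4 complex II genes were called, where 17.5% of all genes were called higher and 7.54% lower.

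**Figure D5:**
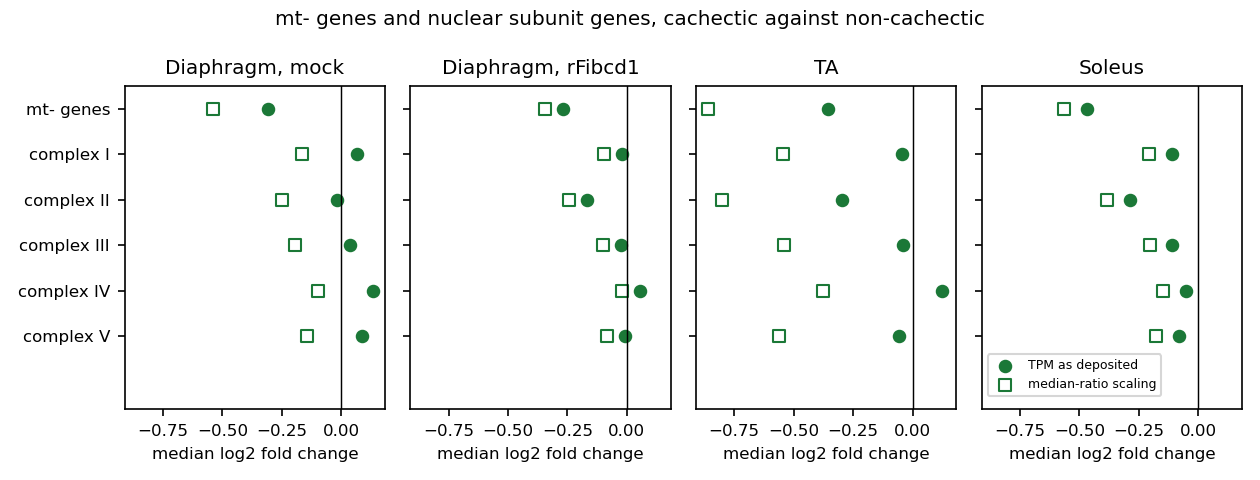
Median log2 fold change (horizontal axis), cachectic against non-cachectic, of the 13 mt- genes and of the nuclear subunit genes of complexes I to V in 4 comparisons; filled circles are TPM as deposited and open squares median-ratio scaling. The mt- genes have the lowest median in each panel, and median-ratio scaling lies to the left of TPM for every list, with 4 nuclear medians in mock diaphragm on either side of 0.

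Of the 42 nuclear genes listed for transcription, processing and upkeep of mitochondrial RNA and DNA, 11 were called higher and 1 lower in cachectic mock diaphragm on the TPM scale, where 30.9% of all genes were called higher and 2.67% lower. With median-ratio scaling 1 was higher and 7 lower, beside 7.39% and 8.41% of all genes. Mterf2, a member of a family of mitochondrial transcription regulators, was the 1 lower gene on the TPM scale (fell by 0.55, limma, adjusted p = 0.0083) and was at -0.77 with the other scaling. Hsd17b10, a subunit of the enzyme that cuts transfer RNA ends (0.42), and Rexo2, an RNase that clears short RNAs (0.36), were highest among those called with a mean of at least 5 TPM. Ssbp1, a single-strand DNA binding protein (0.15), was the lowest of the genes called higher. None of these 3 was called with median-ratio scaling. Tfam, named here outside the rule for named genes, which packs mitochondrial DNA and starts its transcription, ran from 19.0 to 22.7 TPM in non-cachectic and from 14.3 to 21.4 TPM in cachectic mock diaphragm, with overlap. Its means were 20.7 and 18.6 TPM. Those of Polrmt (11.5 and 12.8 TPM) and Ppargc1a (24.5 and 26.3 TPM), likewise outside the rule, went the other way, also with overlap. In TA 16 of 40 listed genes were called higher and 3 lower, beside 56.4% and 3.78% of all genes, and in soleus 4 and 4 of 42, beside 17.5% and 7.54%.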

How the data were processed

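RNA from diaphragm, TA and soleus was sequenced in 59 libraries. Per the labels and the study's methods, the authors trimmed and filtered reads, aligned them to GRCm38 (mm10) in CLC Genomics Workbench and deposited TPM values from its RNA-Seq tool, 1 column per library, each summing to 1000000 over 47643 gene rows. The annotation is not given in the sources used here, and the kit differs between labels and methods. Read depth is unknown, so no counting interval is given. Because TPM is a share of the library, a change in the abundant mt- rows shifts the sum of all others.

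From the deposited TPM, log2(TPM + 1) was fitted with limma 3.58.1 in R 4.3.3 (eBayes with trend), for genes with TPM of at least 1 in as many libraries as the smallest group. The 4 diaphragm groups were fitted together, TA and soleus alone, and muscles in 1 fit without the rFibcd1 groups. P-values were adjusted by Benjamini-Hochberg over all genes, with a threshold of 0.05. Shares of mt-Nd6 and mt-Co1 were tested by two-sided permutation (exact, or 100000 resamples for 10 against 10) over 12 tests, and the planned tests of mt-Rnr2 were void because it was listed at 0. Named genes were all coding mt- genes and, from each nuclear list, up to 4 genes called in mock diaphragm (2 from either end of the fold changes, at 5 TPM or more on average). The members and lists were chosen with earlier results of these data known. Alternatives were another pseudocount (0.1), no filter, a mean TPM of at least 5, median-ratio scaling, scaling to the sum of genes that are not mt-, Dunn tests, the library state, and leaving out each library. Scripts were tested on simulated data. Python 3.11.15, numpy 2.4.6 and pandas 2.3.3 were used for the rest.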

Additional observations from a re-analysis of the deposited data

Results flagged for a closer look

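Of 216 groups of values examined, 20 held a highest or lowest library set apart from the rest by Dixon's criterion, where chance alone marks about 1 in 20 groups. The groups are not independent, since the same libraries enter as TPM and as shares, so that rate is no test of the 20. In cachectic rFibcd1 diaphragm 11 of these came from the library with column number 11: mt-Atp8 at 5966 TPM and 2.00% of the mt- sum, mt-Nd4l at 3274 TPM and 1.10%, mt-Nd5 at 3706 TPM and 1.24%, mt-Nd2 at 2.72% and mt-Nd4 at 3.93% were the lowest of the group. In the same library mt-Co2 at 20.9%, mt-Co3 at 18.7% and mt-Atp6 at 14.03% were the highest.

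In mock diaphragm the lowest non-cachectic library for mt-Co3 (54390 TPM) and the highest cachectic library for the share of mt-Atp8 (9.12%) lay apart from the rest. In non-cachectic TA a single library was highest for the mt- share (51.7%), for mt-Nd3 (15553 TPM) and for the share of mt-Nd3 (3.01%). In cachectic TA the library numbered 8 was lowest for mt-Nd2 (14775 TPM) and for the share of mt-Co1 (13.4%). In non-cachectic soleus the highest library for mt-Atp8 (36869 TPM) and the lowest for the share of mt-Atp6 (11.1%) lay apart.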

How the results depend on the processing

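The counts of mt- genes called are given here by setting, against 10 in mock diaphragm, 5 in rFibcd1 diaphragm, 5 in TA, 9 in soleus, 10 for TA against soleus, 3 for diaphragm against TA and 7 for diaphragm against soleus. A count without a share of all genes called beside it, here or above, shows only how the calls moved with the setting. It is no result about the mt- genes. Dunn tests gave 0 in rFibcd1 diaphragm, with 0.00% of all genes called lower. They gave 10 in TA, and 6, 1 and 2 for the muscle comparisons in that order. Without the filter the counts were 1, 0, 1 and 2 for the melanoma and 2, 1 and 1 for the muscles, and the cause was not tested. Of all genes, 1.68% in mock diaphragm and 5.13% in soleus were called lower without the filter. A mean TPM of at least 5 gave 9 in rFibcd1 diaphragm. Median-ratio scaling gave 1 in rFibcd1 diaphragm, 12 for diaphragm against TA and 3 for diaphragm against soleus, and turned mt-Co1 (0.53 for TA against soleus, -0.33 for diaphragm against TA) and mt-Co2 (-0.52 for diaphragm against TA). Scaling to the sum of genes that are not mt- gave 9 in rFibcd1 diaphragm and 1 for diaphragm against TA. High-state libraries alone gave 2 in mock and 0 in rFibcd1 diaphragm, and the state as a term 6 in mock. Chosen after seeing the data, a fit without a trend gave 3 in TA.

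Leaving out single libraries gave 9 to 12 in mock diaphragm, 1 to 9 with rFibcd1, 2 to 9 in TA, 6 to 11 in soleus, 8 to 11 for TA against soleus, 2 to 5 for diaphragm against TA (5 without cachectic TA library 8) and 3 to 7 for diaphragm against soleus (3 or 4 without mock diaphragm library 61 or 62 or soleus library 63, 64 or 65). Of all genes, 1.88% to 3.29%, 1.21% to 3.29%, 2.97% to 5.56% and 5.39% to 8.45% were called lower in the melanoma comparisons, in that order. For the muscles these shares were 5.11% to 5.89% (higher), 7.58% to 9.16% (lower) and 14.1% to 18.7% (higher). The difference of the melanoma effect between TA and soleus gave 0 to 2 (2 without cachectic TA library 8). The share of mt-Co1 in TA differed by -1.32 to -0.632 percentage points, and its exact permutation test passed without cachectic library 6 (adjusted p = 0.048). The other share tests kept their side of the threshold.

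No paired analysis was possible on the labelled replicate numbers, because no column is tied to one of them. When column numbers entered the muscle fit as blocks (an alternative added after seeing the data), the difference of the melanoma effect was called for 2 genes between TA and soleus (mt-Nd4l and mt-Nd5), for 1 between diaphragm and TA and for 1 between diaphragm and soleus (mt-Nd6 in both). Read depth is unknown, which limits the reading of mt-Nd6 most.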

Other observations

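Columns with the same number occur in diaphragm, TA and soleus, and the labels do not say whether a number marks an animal. The mt- share in cachectic libraries numbered 8 was 33.2% in mock diaphragm, 25.1% in TA and 24.1% in soleus, the lowest of libraries 6 to 10 in each muscle. In non-cachectic libraries numbered 62 it was 51.9%, 51.7% and 44.0%, the highest of libraries 61 to 65 in each muscle.

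The ratio of mt-Nd5 to mt-Nd6 TPM, 2 complex I genes that overlap on opposite strands, averaged 18.7 ± 3.93 (SD, n = 9) in non-cachectic mock diaphragm, 16.9 ± 4.10 (n = 5) in non-cachectic TA and 29.8 ± 6.25 (n = 5) in non-cachectic soleus. In cachectic TA it was 22.05 ± 3.72 and in cachectic soleus 29.0 ± 8.98 (n = 5 each), with overlap between the melanomas in both muscles. The ratio of mt-Atp8 to mt-Atp6, which lie on 1 RNA, was 0.723 ± 0.0238 in non-cachectic and 0.652 ± 0.0304 in cachectic soleus, and 0.714 ± 0.0323 (n = 9) and 0.662 ± 0.0285 (n = 10) in mock diaphragm. In TA it was 0.721 ± 0.0426 and 0.707 ± 0.0464 (n = 5 each). In rFibcd1 diaphragm it was 0.687 ± 0.0213 without and 0.659 ± 0.191 with cachexia (n = 10 each), and 0.717 ± 0.0640 (n = 9) with cachexia when the library numbered 11 was left out, so the order of the means turned with that library.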
